A study of Homo sapiens with 19 samples.

Results

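Class I myosins are single-headed actin motors whose tails bind membranes, and MYO1F and MYO1G are the members of the class best known from white blood cells. The 5 class I myosin genes MYO1F, MYO1G, MYO1C, MYO1D and MYO1E, of 20033 protein-coding genes in GENCODE release 44, were followed through peak lists of 3 histone marks in MOLM-13 cells treated with Corin or with the vehicle DMSO. MYO1F and MYO1G were selected on measured values of these lists: MYO1G had the largest gain of H3K27ac coverage near its transcription start site (TSS) among all protein-coding genes, and MYO1F the second-largest gain of H3K4me2 coverage. MYO1C, MYO1D and MYO1E, which many tissues express, were taken beside them as the broadly expressed members. Because the Corin and DMSO libraries chose the members, the differences between those libraries are given as a description, with no test. An exact permutation test of 2 libraries against 2 could in any case not reach a p below 0.333.

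MOLM-13 is a human acute myeloid leukaemia cell line that carries a KMT2A-MLLT3 fusion. Corin is a hybrid small molecule that inhibits LSD1, a demethylase of mono- and dimethylated H3K4, and the deacetylases of the CoREST complex. CUT&RUN, in which an antibody directs a nuclease to cut out the chromatin around a mark, was made for H3K27ac, H3K4me2 and H3K4me3 after 24 h of Corin at 0.1 µM or of DMSO, with 2 libraries per mark and treatment. The labels give the DMSO groups the same 0.1 µM and do not say what it means for the vehicle, and they do not say whether the libraries of a group came from separate cultures. All 12 libraries are of this 1 line, with no other genotype. A further 7 libraries of the series, which hold ATRA with Corin, IgG and LSD1 samples, were not analysed here.

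The motor domain of a class I myosin binds actin and hydrolyses ATP, its neck binds calmodulin light chains, and its tail holds a lipid-binding domain. MYO1E and MYO1F are long-tailed, with an SH3 domain that binds partner proteins, whereas MYO1C, MYO1D and MYO1G are short-tailed. MYO1F takes part in the adhesion and migration of neutrophils, and MYO1G lies at the plasma membrane of blood cells, where it affects membrane tension. H3K27ac marks active promoters and enhancers, H3K4me2 both promoters and enhancers, and H3K4me3 active promoters. Peaks report where enriched fragments were called over a population of cells, so fewer marked cells and less mark per cell cannot be told apart.

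There were 34424 and 30029 H3K27ac peaks in the Corin lists and 17599 and 19995 in the DMSO lists, and the Corin lists covered 1.96-fold as much of the genome. For H3K4me2 the ratio was 1.28-fold and for H3K4me3 1.06-fold. Read depth per library is not in the lists and is unknown. Of 9 myeloid and leukaemia marker genes 6 had an H3K4me3 peak within 1 kb of the TSS in 4 libraries (SPI1, CD33, CEBPA, FLT3, MEIS1 and HOXA9), MPO and CSF1R had none in any, and 0 of 10 markers of other cell types had one.

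All 5 members lie on the minus strand of hg38. MYO1F (ENSG00000142347.19) lies at chr19:8520778-8577577 and spans 56.8 kb, and MYO1G (ENSG00000136286.16) lies at chr7:44962662-44979088 and spans 16.4 kb. MYO1C (ENSG00000197879.17) lies at chr17:1464186-1492686, MYO1D (ENSG00000176658.17) at chr17:32492522-32877177 and MYO1E (ENSG00000157483.9) at chr15:59132434-59372871. MYO1D, at 385 kb, and MYO1E, at 240 kb, are the long genes of the group. The bases just upstream of the GENCODE gene start, taken from the RefSeq promoter table (GRCh38.p14) and read 5′ to 3′ on the gene's strand, are shown for MYO1F, MYO1G and MYO1D, because the promoters of MYO1F and MYO1G differ in CpG content from that of MYO1D. Capitals mark CpG dinucleotides.
MYO1F, chr19:8577578-8577692, minus strand: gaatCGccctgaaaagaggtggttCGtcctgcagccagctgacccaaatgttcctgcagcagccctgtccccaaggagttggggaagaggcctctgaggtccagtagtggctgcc
MYO1G, chr7:44979089-44979265, minus strand: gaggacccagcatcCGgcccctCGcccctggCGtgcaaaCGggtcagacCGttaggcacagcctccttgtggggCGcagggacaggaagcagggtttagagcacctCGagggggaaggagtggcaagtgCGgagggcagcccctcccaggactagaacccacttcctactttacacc
MYO1D, chr17:32877178-32877374, minus strand: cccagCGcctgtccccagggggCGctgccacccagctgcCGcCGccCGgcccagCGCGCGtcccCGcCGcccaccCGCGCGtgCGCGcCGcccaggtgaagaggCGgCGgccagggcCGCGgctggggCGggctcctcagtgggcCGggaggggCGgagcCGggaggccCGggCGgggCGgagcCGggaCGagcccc
There are 2 CpG dinucleotides in the 115 bp of MYO1F, 8 in the 177 bp of MYO1G and 29 in the 197 bp of MYO1D. Over the whole 300-bp RefSeq promoters, the observed over expected CpG ratio was 0.278 for MYO1F, 0.337 for MYO1G, 0.854 for MYO1D and 0.705 for MYO1E, against a median of 0.579 over all promoters of the table. MYO1C has 4 RefSeq promoters, with ratios of 0.221 at the outermost start and 0.916, 0.751 and 0.952 at the inner ones.

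At MYO1G, peaks of all 3 marks covered more bp near the TSS in the Corin libraries, and the largest difference was in H3K27ac. Coverage gives how many bp lie under peaks, not the amount of mark. Within 10 kb either side of the TSS, H3K27ac peaks covered 11136 and 8612 bp in Corin libraries 1 and 2 and 2752 and 2477 bp in DMSO libraries 1 and 2. Both Corin libraries lay far above both DMSO libraries, and the lower Corin value was more than 3 times the higher DMSO value. The means were 9874 ± 1785 bp after Corin and 2614.5 ± 194 bp after DMSO (SD, n = 2 each), a 3.78-fold ratio and a difference of 7259.5 bp. CISH, an inhibitor of cytokine signalling, came next among all genes with a difference of 6874.5 bp. Directly at the start, within 1 kb of the TSS, H3K27ac covered all 2001 bp in both Corin libraries, and 1024 and 950 bp in the DMSO libraries.

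The additional H3K27ac coverage at MYO1G lay on both sides of the start. On the upstream 10 kb it covered 6864 and 5057 bp in the Corin libraries, against 1536 and 1732 bp in the DMSO libraries. On the downstream 10 kb, inside the gene, it covered 4272 and 3555 bp with Corin and 1216 and 745 bp with DMSO. The ratios of the means were close to each other, 3.65-fold upstream and 3.99-fold downstream. The peak region over the TSS, from 1083 bp upstream to 2259 bp downstream, was present in all 4 libraries and covered 3089 and 3136 bp in the Corin libraries, against 1240 and 1151 bp in the DMSO libraries. A further 3 regions were present in both Corin libraries and in no DMSO library, and are called gained here. The first lay 3213 to 4847 bp into the gene, over exons and introns, with 1266 and 800 bp covered, and it is no longer gained where peaks must cover at least 50% of the region. The second lay 5709 to 6713 bp into the gene, with 946 and 703 bp covered. The third lay 4062 to 5906 bp upstream of the MYO1G start, with 1845 and 1247 bp covered.

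That upstream region lies inside SNHG15, a long non-coding RNA gene (chr7:44983019-44986961) on the same strand, whose own TSS is 7873 bp upstream of that of MYO1G. Part of the window of MYO1G therefore lies nearer to the start of SNHG15. With only the 13026 bp that lie nearer to the start of MYO1G than to any other gene start, H3K27ac covered 7762 and 5718 bp with Corin and 1980 and 1431 bp with DMSO, a 3.95-fold ratio. The start of SNHG15 itself did not separate the treatments: within 1 kb of it H3K27ac covered 989 and 1029 bp in the Corin libraries, against 517 and 997 bp in the DMSO libraries. The central 300 bp of the gained region are shown because this is the gained region of MYO1G with the most covered bp. The sequence is the plus strand of hg38, and the capitals mark a match to GAGGAA, the core letters bound by the myeloid ETS factor PU.1, here on the minus strand.
Region upstream of MYO1G, chr7:44983922-44984221: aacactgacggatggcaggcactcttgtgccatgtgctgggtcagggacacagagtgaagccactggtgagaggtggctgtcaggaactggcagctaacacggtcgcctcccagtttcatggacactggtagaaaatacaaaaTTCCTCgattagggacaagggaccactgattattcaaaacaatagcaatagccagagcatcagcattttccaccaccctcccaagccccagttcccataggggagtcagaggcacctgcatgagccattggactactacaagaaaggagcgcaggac
GAGGAA occurs on either strand in the central 300 bp of 29.6% of all H3K27ac regions, so 1 match here is common.

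**Figure D1:**
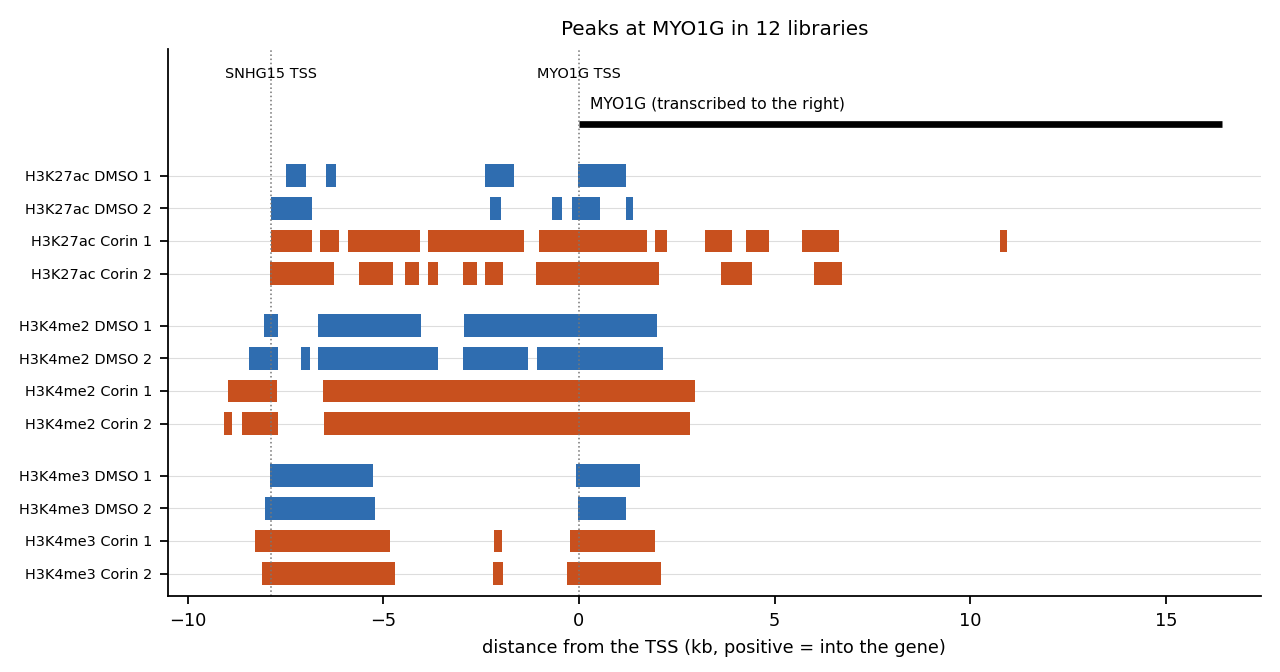
Peaks of each library around MYO1G, as bars along the distance from its TSS in kb (positive values run into the gene), with 1 row per library, DMSO in blue and Corin in orange; the black bar is the gene and dotted lines mark the starts of MYO1G and SNHG15. H3K27ac covers more of the window in both Corin libraries, and H3K4me2 forms 1 unbroken peak from within SNHG15 into MYO1G in both Corin libraries.

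H3K4me2 at MYO1G was already wide after DMSO and formed 1 unbroken domain across the start after Corin. The window held 10775 and 10472 bp with Corin and 7928 and 8962 bp with DMSO, with means of 10623.5 ± 214 and 8445 ± 731 bp (SD, n = 2 each) and a 1.26-fold ratio. The widest peak measured 9500 and 9357 bp in the Corin libraries and 4941 and 3236 bp in the DMSO libraries. Among all H3K4me2 peaks of their lists, these Corin peaks ranked 14 of 41152 and 11 of 40042 by width. The DMSO peaks ranked 204 of 30896 and 1240 of 32299. Within 1 kb of the TSS H3K4me2 covered all 2001 bp in all 4 libraries.

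H3K4me3 at MYO1G was wider after Corin too. It covered 5809 and 6065 bp of the window after Corin and 4263 and 4050 bp after DMSO, with means of 5937 ± 181 and 4156.5 ± 151 bp (SD, n = 2 each) and a 1.43-fold ratio. The peak over the MYO1G start measured 2173 and 2408 bp in the Corin libraries, against 1637 and 1234 bp in the DMSO libraries. The other large peak, over the start of SNHG15, measured 3429 and 3398 bp against 2626 and 2816 bp. Between them, 1937 to 2195 bp upstream of MYO1G, a small gained region held 207 and 259 bp in the Corin libraries. For this mark both starts in the window therefore had wider peaks in both Corin libraries than in both DMSO libraries.

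At MYO1F, within 10 kb of the TSS, the largest difference was in H3K4me2, a smaller one was in H3K27ac, and H3K4me3 did not separate the treatments. Over the whole gene the order of the first 2 was the other way round, with 5065.5 bp for H3K27ac and 3524.5 bp for H3K4me2. H3K4me2 covered 10181 and 10544 bp of the window after Corin and 5144 and 6289 bp after DMSO. The Corin libraries lay close together and well above both DMSO libraries. The means were 10362.5 ± 257 and 5716.5 ± 810 bp (SD, n = 2 each), a 1.81-fold ratio and a difference of 4646 bp. RAB11FIP1, an endosomal recycling gene, had the larger difference of 5030 bp, and HSH2D, an adaptor of blood cells, followed MYO1F with 4588 bp. No H3K4me2 region at MYO1F was gained in the sense used here. The 2 regions present in all 4 libraries were wider after Corin. The region over the TSS measured 4324 and 4432 bp with Corin and 2734 and 2859 bp with DMSO. The region in an intron, 3090 to 9014 bp into the gene, measured 5857 and 5672 bp against 2410 and 3430 bp.

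Upstream of MYO1F, H3K4me2 covered 543 and 533 bp after DMSO and 1616 and 1703 bp after Corin. In the first 10 kb of the gene it covered 4601 and 5756 bp after DMSO and 8565 and 8841 bp after Corin. The difference was larger in bp inside the gene and larger as a ratio upstream, at 3.08-fold against 1.68-fold. On average these are 87.0% of the first 10 kb of MYO1F after Corin and 51.8% after DMSO.

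H3K27ac at MYO1F covered 6286 and 5480 bp of the window after Corin and 3191 and 3799 bp after DMSO, with means of 5883 ± 570 and 3495 ± 430 bp (SD, n = 2 each) and a 1.68-fold ratio. Nearly all of it lay inside the gene: upstream there were 100 and 117 bp in the Corin libraries, against 0 and 60 bp in the DMSO libraries. Within 1 kb of the TSS the treatments overlapped, with 1100 and 697 bp against 489 and 830 bp, and they also overlapped within 5 kb, with 2493 and 1187 bp against 655 and 1272 bp. The intronic region 4234 to 8185 bp into the gene carried the largest share, with 3479 and 3666 bp with Corin and 2223 and 2213 bp with DMSO. It lies within the intronic H3K4me2 region described above. Over the whole 56.8-kb gene H3K27ac covered 10400 and 7580 bp in the Corin libraries, against 3191 and 4658 bp in the DMSO libraries, a 2.29-fold ratio. Part of this came from 2 gained regions deeper in the gene, 12226 to 13946 bp in, with 1721 and 747 bp covered, and 16167 to 16564 bp in, with 335 and 253 bp. The wider one is no longer gained where peaks must cover at least 50% of a region, because in Corin library 2 they cover less than that. Neither of these gained regions overlapped an H3K4me2 or H3K4me3 peak in any library. A region 18384 to 20181 bp into the gene had 1304 and 1216 bp after Corin, none in DMSO library 1 and 918 bp in DMSO library 2, so it was not a gained one.

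The central 300 bp of the wider gained region are shown because it is the widest H3K27ac region of MYO1F found only after Corin. The sequence is the plus strand of hg38, within an intron, and the capitals mark TGTGGT, the core letters bound by RUNX factors, on the minus strand.
Region in MYO1F, chr19:8564341-8564640: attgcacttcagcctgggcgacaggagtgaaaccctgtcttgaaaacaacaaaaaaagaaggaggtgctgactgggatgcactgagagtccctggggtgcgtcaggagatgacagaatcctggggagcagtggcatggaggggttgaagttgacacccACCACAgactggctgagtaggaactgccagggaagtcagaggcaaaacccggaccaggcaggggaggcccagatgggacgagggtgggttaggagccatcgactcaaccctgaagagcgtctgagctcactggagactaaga
TGTGGT occurs on either strand in 20.0% of the central 300 bp of all H3K27ac regions.

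**Figure D2:**
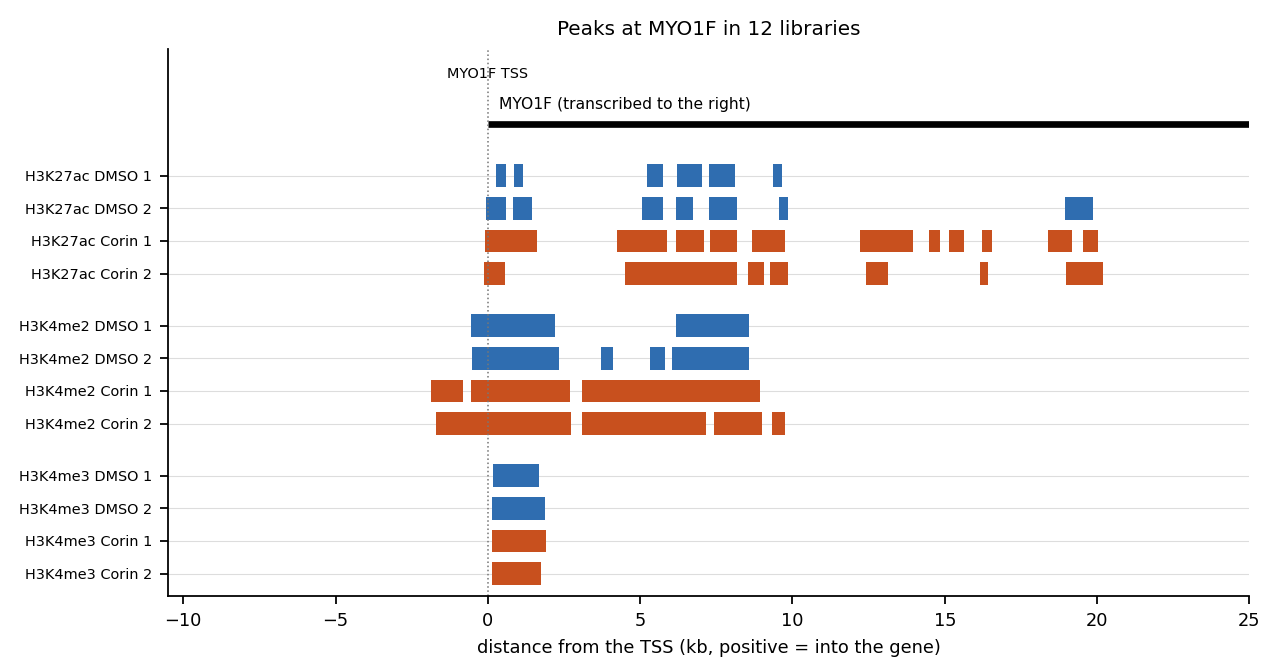
Peaks of each library around MYO1F, as bars along the distance from its TSS in kb (positive values run into the gene, which continues past the right edge, where no library has a peak), with 1 row per library, DMSO in blue and Corin in orange. H3K4me2 fills most of the first 9 kb of the gene in the Corin libraries, H3K4me3 keeps 1 peak of like width in all 4 libraries, and H3K27ac appears between 12 and 17 kb in the Corin libraries alone.

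H3K4me3 at MYO1F consisted of 1 peak in each library, just inside the gene, of 1780 and 1633 bp with Corin and 1514 and 1744 bp with DMSO. The treatments overlapped, and the difference of 77.5 ± 193 bp (SD of the difference) was smaller than the spread between libraries. Each H3K4me3 peak of MYO1F lay wholly under H3K4me2. H3K4me2 that was covered by neither of the other marks measured 4434 and 4344 bp of the window after Corin and 1944 and 2426 bp after DMSO.

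**Figure D3:**
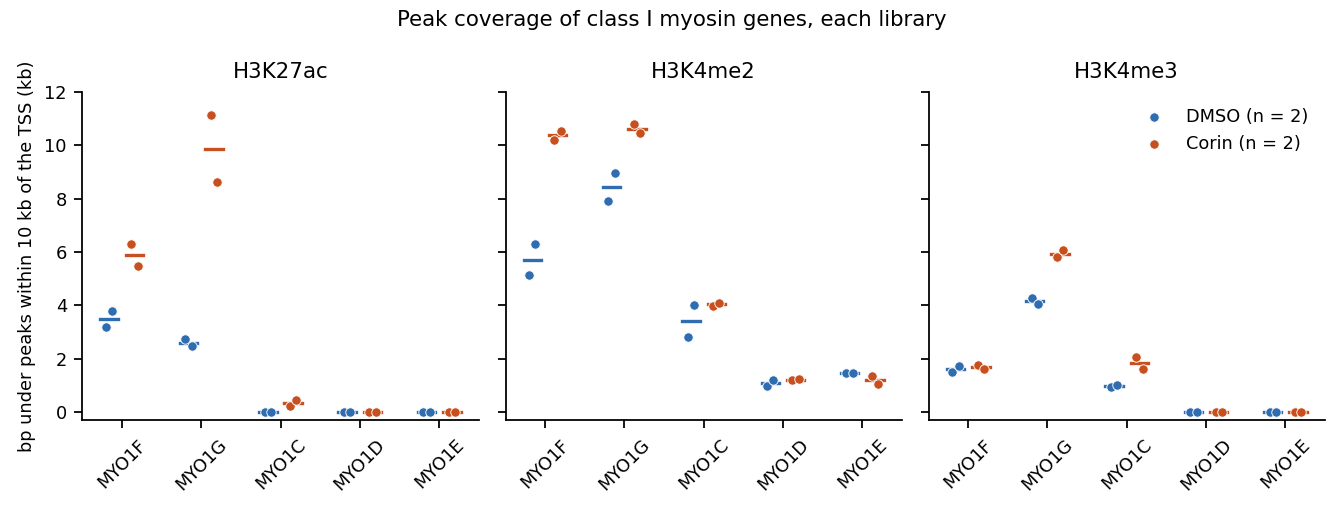
Coverage by peaks within 10 kb of the TSS, in kb, for each of the 5 members and each mark; points are single libraries (blue DMSO, orange Corin) and bars are means of 2. The largest distance between Corin and DMSO is at MYO1G for H3K27ac and at MYO1F for H3K4me2, and MYO1G has as wide H3K4me2 coverage as MYO1F after Corin, while MYO1D and MYO1E are at 0 for H3K27ac and H3K4me3.

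The broadly expressed members had less H3K27ac and H3K4me2 coverage near the TSS than MYO1F and MYO1G in all 4 libraries of each mark. MYO1F and MYO1G were selected on gains in this same window, so nothing is read from this contrast. H3K4me3 did not divide the members in this way. After Corin it covered 2069 and 1623 bp at MYO1C and 1780 and 1633 bp at MYO1F. MYO1C, a motor that brings glucose transporter vesicles to the membrane and that also has a nuclear isoform, had H3K27ac peaks of 232 and 457 bp in the Corin libraries and none in the DMSO libraries. These are different places in the gene, 6398 to 6629 bp in for Corin library 1 and 1180 to 1636 bp in for Corin library 2, so the gene counts as higher although no region was shared. Both are weak peaks: 13.1% and 21.7% of the peaks of their lists had a lower score. With only peaks of a score of at least 100, MYO1C had no H3K27ac peak in any library.

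H3K4me3 at MYO1C covered 2069 and 1623 bp in the Corin libraries, against 963 and 1039 bp in the DMSO libraries, a 1.84-fold ratio of 1846 ± 315 to 1001 ± 53.7 bp (SD, n = 2 each). The difference of 845 bp was 426 bp within 5 kb of the start, where both Corin libraries were still above both DMSO libraries. The main region, 565 to 1991 bp into the gene, measured 1384 and 1217 bp with Corin and 963 and 786 bp with DMSO. A second region 6489 to 6894 bp in had 366 and 406 bp after Corin, none in DMSO library 1 and 253 bp in DMSO library 2. No peak of any mark lay over the outermost annotated start of MYO1C. The H3K4me2 regions present in all 4 libraries, 409 to 2220 and 6141 to 8063 bp in, instead held the annotated inner transcript starts at 646, 1004, 1076, 6485, 6926 and 7319 bp. H3K4me2 at MYO1C covered 3989 and 4101 bp in the Corin libraries, against 2813 and 4033 bp in the DMSO libraries. DMSO library 2 lay above Corin library 1, so the treatments overlapped, and the difference of 622 ± 866 bp (SD of the difference) was smaller than the spread. It was 12 bp without DMSO library 1 and 1232 bp without DMSO library 2.

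MYO1D, best known for its part in left-right asymmetry, had no H3K27ac and no H3K4me3 peak in any library, in the window or in the 385-kb gene. It had 1 H3K4me2 peak over its start, of 1198 and 1233 bp with Corin and 1002 and 1225 bp with DMSO. DMSO library 2 lay between the Corin libraries. A long non-coding RNA gene (ENSG00000236377) starts 451 bp downstream on the other strand, and the peak also covers that start in 3 of the 4 libraries, all but DMSO library 1. At the far end of MYO1D, 384094 to 384504 bp from the start, a gained H3K4me2 region held 337 and 361 bp in the Corin libraries. Other H3K4me2 regions of the gene did not follow the treatment: one at 382144 to 382581 bp had 220 bp in Corin library 1 and 438 bp in DMSO library 2, and one at 357444 to 358019 bp had 576 bp in DMSO library 2 alone. Over the whole gene the treatments overlapped, with 1133 and 1037 bp in the Corin libraries and 286 and 1632 bp in the DMSO libraries.

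MYO1E, which works in endocytosis and in the kidney's podocytes, was likewise without H3K27ac and H3K4me3 in every library. Its H3K4me2 went in opposite directions near the start and deeper in the gene. In the window H3K4me2 covered 1355 and 1068 bp in the Corin libraries, against 1491 and 1459 bp in the DMSO libraries, a difference of -263.5 ± 204 bp (SD of the difference). It was -120 bp without Corin library 2 and -407 bp without Corin library 1. Over the whole gene it covered 3821 and 3029 bp with Corin and 1228 and 1477 bp with DMSO, a 2.53-fold ratio. FAM81A starts 178 bp downstream on the plus strand, and with only the bp nearer to the start of MYO1E the window gave 346 and 311 bp in the Corin libraries, against 352 and 311 bp in the DMSO libraries, which overlap. The lower value near the start thus lay in the bp nearer to the start of FAM81A. Deep in MYO1E, 2 gained H3K4me2 regions lay in an intron: 195160 to 196374 bp from the start, with 1148 and 1208 bp covered, and 197082 to 197487 bp from the start, with 318 and 406 bp. A region 71880 to 72733 bp in had 854 and 569 bp after Corin, none in DMSO library 1 and 240 bp in DMSO library 2. The central 300 bp of the widest of the gained ones are shown because it accounts for most of the difference over the gene; capitals mark TTGCNNAA (C/EBP) and TGTGGT (RUNX, on the minus strand) on the plus strand of hg38.
Region in MYO1E, chr15:59176954-59177253: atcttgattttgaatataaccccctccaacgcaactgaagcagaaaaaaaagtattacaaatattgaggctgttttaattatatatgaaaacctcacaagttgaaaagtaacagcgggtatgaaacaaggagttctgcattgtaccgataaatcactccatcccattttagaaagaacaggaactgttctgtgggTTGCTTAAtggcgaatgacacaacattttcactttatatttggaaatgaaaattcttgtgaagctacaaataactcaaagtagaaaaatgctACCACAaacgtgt
Among the central 300 bp of all H3K4me2 regions, 15.5% hold TTGCNNAA and 20.4% hold TGTGGT on either strand.

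**Figure D4:**
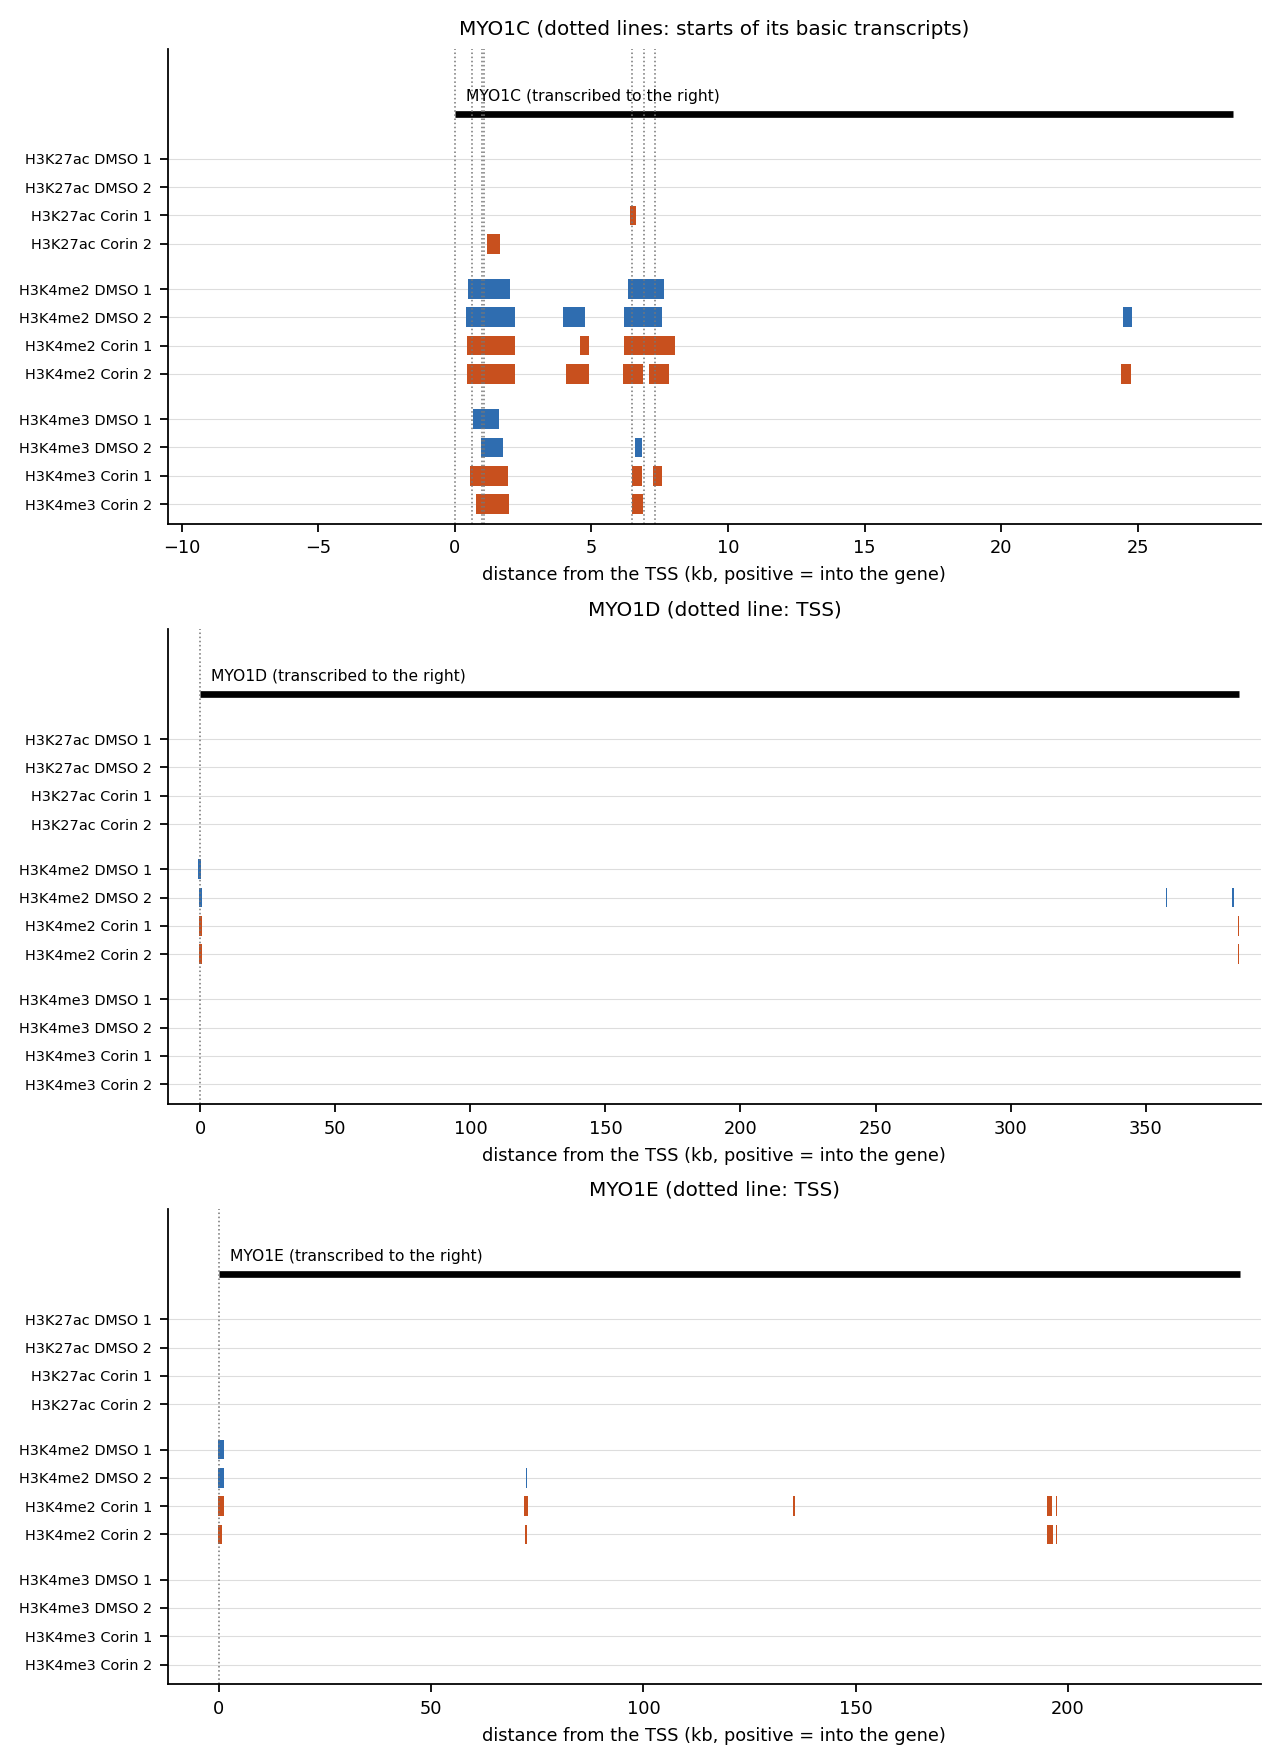
Peaks of each library along MYO1C, MYO1D and MYO1E, as bars by distance from the TSS in kb (1 scale per gene), with 1 row per library, DMSO in blue and Corin in orange. The H3K4me3 peaks of MYO1C sit at or next to its inner starts and some of its H3K4me2 peaks lie away from any start, MYO1D has only H3K4me2, and MYO1E has H3K4me2 about 195 to 197 kb from its start in both Corin libraries.

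Marks at the start also differed between members in both treatments alike. MYO1F and MYO1G, with promoter CpG ratios below the median, had an H3K4me3 peak within 1 kb of the TSS in all 4 libraries. MYO1D and MYO1E, with ratios above the median, had H3K4me2 there in all 4 and neither H3K4me3 nor H3K27ac in any. MYO1C, whose outermost promoter is CpG-poor and whose next one is CpG-rich, had H3K4me3 within 1 kb of its outermost start in all 4 libraries too, with 436 and 226 bp in the Corin libraries and 344 and 30 bp in the DMSO libraries. Over 15344 protein-coding genes with a RefSeq promoter, H3K4me3 was present in all 4 libraries at 50.2%. Of 8997 promoters with a CpG ratio of at least 0.7, H3K4me3 was present in 4 libraries at 72.0%, and 7.62% had H3K4me2 in 4 libraries with neither of the other marks, as MYO1D and MYO1E did. Of 3388 promoters with a CpG ratio of at most 0.35, only 4.81% had H3K4me3 in all 4 libraries, as MYO1F and MYO1G did. With these cutoffs, the promoters of MYO1F, MYO1G, MYO1D and MYO1E were in the smaller class for their CpG content. The cutoffs lie close to the ratios of MYO1E, at 0.705, and MYO1G, at 0.337. Of all promoters of the table, 58.4% had a lower ratio than MYO1E and 35.9% a lower one than MYO1G. MYO1F and MYO1G were also selected on coverage near the TSS, so nothing is read from their class.

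Of the motifs searched on both strands of the RefSeq promoters (GAGGAA for PU.1, AATCANNGC for GFI1, TGTGGT for RUNX and TTGCNNAA for C/EBP), the promoters of MYO1G, MYO1D and MYO1E held none. MYO1F held 1 GAGGAA, 4 bp before its RefSeq start, which lies downstream of the stretch printed above, and MYO1C held 1 at its outermost promoter. Over all RefSeq promoters of the same length 27.9% held GAGGAA, 3.57% AATCANNGC, 13.1% TGTGGT and 10.5% TTGCNNAA. No matches overlapped one another in the sequences printed. A match describes letters only.

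Counts over the members are given beside those over all 20033 genes. For H3K27ac, both Corin libraries were above both DMSO libraries at 3 of the 5 members (MYO1F, MYO1G and MYO1C) and below at 0, where 28.7% of all genes were above and 0.344% below. Of genes with any covered bp 54.6% were above, and over gene bodies, where the same 3 members were above and 0 below, 28.8% of all genes were above and 0.514% below. For H3K4me2, 2 members were above (MYO1F and MYO1G) and 1 below (MYO1E), against 27.8% of all genes above and 2.69% below. Here 39.5% of genes with any covered bp were above. Over gene bodies 3 members were above, with MYO1E now among them, and 0 below, against 28.4% of all genes above and 3.40% below. For H3K4me3, 2 members were above (MYO1G and MYO1C) and 0 below, against 14.4% of all genes above and 4.63% below. Of genes with any covered bp 25.7% were above, and over gene bodies, with the same 2 members above and 0 below, 13.1% of all genes were above and 5.07% below. These contrasts chose the members, so nothing is read from the counts.

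H3K27ac coverage at MYO1G differed 3.78-fold and at MYO1F 1.68-fold, beside 1.96-fold for the lists as a whole. For H3K4me2 both MYO1F, at 1.81-fold, and MYO1G, at 1.26-fold, can be set beside 1.28-fold for the lists. Since the Corin lists were larger, the values were taken again with the same number of top-scoring peaks from every list of a mark. MYO1G then had 9496 and 5846 bp of H3K27ac after Corin and 2752 and 2241 bp after DMSO, and ranked 4 among all genes rather than 1. MYO1F then had 10181 and 10104 bp of H3K4me2 after Corin and 5144 and 6289 bp after DMSO, and ranked 3 rather than 2. H3K27ac at MYO1F then had 4560 and 4952 bp against 3191 and 3799 bp, a difference of 1261 bp rather than 2388 bp. Of the 5 H3K27ac regions gained at MYO1F and MYO1G, 1 was left, 3638 to 4847 bp into MYO1G, and over all H3K27ac regions the gained share was 4.49% in place of 11.5%.

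**Figure D5:**
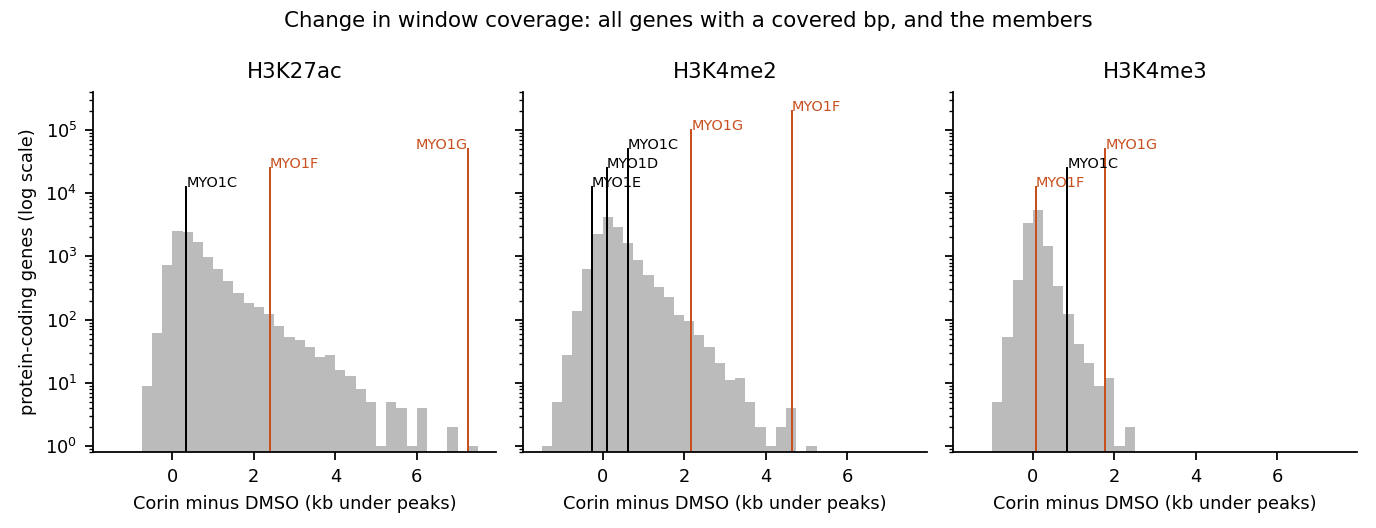
Difference in coverage within 10 kb of the TSS, Corin minus DMSO in kb, over all protein-coding genes with a covered bp (grey bars, number of genes on a log scale, bins of 0.25 kb), with the members that have a covered bp as vertical lines (orange MYO1F and MYO1G, black the others; line heights carry no value). MYO1G lies at the right end for H3K27ac and MYO1F near it for H3K4me2, and MYO1E lies left of 0 for H3K4me2.

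Union regions were made by joining overlapping peaks of the 4 libraries of a mark. Of 17 H3K27ac regions in the windows and bodies of the 5 genes, 5 were gained and 0 were lost, where 11.5% of all 41587 H3K27ac regions were gained and 0.180% lost. All 5 were at MYO1F or MYO1G, which held 15 of the 17 regions and were selected on such gains. Of 19 H3K4me2 regions 3 were gained, all at MYO1D or MYO1E, where 9.64% of all 42429 regions were. MYO1C, MYO1D and MYO1E held 13 of these 19 regions. Of 7 H3K4me3 regions 1 was gained, where 1.49% of 12090 were.

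The genes whose coverage over the 12 libraries was most like that of MYO1G, by the root mean square difference of window coverage, were CDT1, TNF, ZYX, CGAS and FAM78A, at 1098 to 1589 bp. TNF, the inflammatory cytokine, had 7806 bp of H3K27ac after Corin and 2401 bp after DMSO on average, and ZYX, a focal adhesion protein, had 8884.5 and 4913 bp. Those most like MYO1F were PARL with ENSG00000283765, which share a start, then TNFRSF10B, INAVA and GNA15, at 947 to 1053 bp. GNA15, a G protein subunit of blood cells, had 8926 bp of H3K4me2 after Corin and 5348.5 bp after DMSO. The likeness is over libraries of 3 marks and describes how much is covered, not where.

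Other genes of the actomyosin system were looked at as lists. Of the other class I myosins, MYO1A, a motor of intestinal microvilli, had 237 and 658 bp of H3K27ac after Corin and none after DMSO. Its H3K4me2 covered 2383 and 2171 bp with Corin and 1336 and 983 bp with DMSO, so it too was above in both Corin libraries. In the same window MYO1H had no peak of any mark. Among 11 other non-muscle myosins, 3 were above for H3K27ac, 6 for H3K4me2 and 3 for H3K4me3, and none was below, beside 28.7%, 27.8% and 14.4% of all genes above. MYH9, the heavy chain of non-muscle myosin IIA, led with 2745 and 2667 bp of H3K27ac after Corin and 228 and 1725 bp after DMSO. Over gene bodies 8 of the 11 were above for H3K27ac, 7 for H3K4me2 and 2 for H3K4me3, with 1 below for H3K4me3, beside 28.8%, 28.4% and 13.1% of all genes above and 5.07% below for H3K4me3. Of the 10532 genes with a covered H3K27ac bp in the window, 5038 were above over the body. Gene bodies were not matched for length, so nothing is read from these counts. The median difference of this list in the window was 0 bp for H3K27ac and 186.5 bp for H3K4me2, against 0 and 56.5 bp over all genes. Of the 11 genes 10 had a bp covered by H3K4me2, and over all such genes the median was 233.5 bp.

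Calmodulin genes encode the light chains of class I myosins. For H3K27ac the treatments overlapped at CALM2 and at CALM3. CALM2 was below for H3K4me3, with 1952 and 2024 bp in the Corin libraries, against 2364 and 2277 bp in the DMSO libraries. CALM3 was above for H3K4me2 by 179.5 bp and for H3K4me3 by 221.5 bp.

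Of 13 leukocyte actin regulators, 7 were above for H3K27ac, 6 for H3K4me2 and 3 for H3K4me3, and 2 were below for H3K4me3. For H3K27ac 11 of them had a covered bp, and 54.6% of all genes with a covered bp were above. For H3K4me2 all 13 had one, beside 39.5%, and for H3K4me3 9 had one, beside 25.7%. The 2 below for H3K4me3 stand beside 927 of the 11193 genes with a covered bp, and beside 4.63% of all genes. Over gene bodies 9, 8 and 4 of the 13 were above, beside 28.8%, 28.4% and 13.1% of all genes, and 1 was below for H3K4me3, beside 5.07%. Of the 10532 genes with a covered H3K27ac bp in the window, 5038 were above over the body, and lengths were not matched. Median differences were 376.5 bp for H3K27ac and 737.5 bp for H3K4me2, with 0 and 56.5 bp over all genes and 445 and 233.5 bp over genes with a covered bp. PSTPIP1, an adaptor of the immune actin skeleton, had 4498 and 4440 bp of H3K27ac after Corin and 1809 and 2136 bp after DMSO. LSP1, a leukocyte actin-binding protein, had 2896 and 2927 bp of H3K4me2 after Corin and 461 and 730 bp after DMSO. LCP1, the actin bundler L-plastin, was below for H3K4me3, with 481 and 648 bp against 893 and 920 bp.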

How the data were processed

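CUT&RUN of H3K27ac, H3K4me2 and H3K4me3 in MOLM-13 cells gave 12 peak lists, 1 per library, 2 per mark and treatment. Per the submitters' processing notes, Trim Galore, Bowtie2, Picard and MACS2 were used with GRCh38/hg38, with no versions; the peak threshold and control are not given in the sources used here. The deposited lists give each peak's position and a score by the authors, whose definition is not stated and whose lowest value is 50. The score was used only to rank and filter peaks within a list. No peak of 292523 ran past an hg38 chromosome end.

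From these, the bp under peaks were summed per library within 10 kb either side of the GENCODE release 44 gene start (TSS) and over the gene body, for all 20033 protein-coding genes. A gene was called above or below where both Corin libraries lay beyond both DMSO libraries. Union regions joined peaks that overlap by at least 1 bp. The SD of a difference combines the SDs of both groups. Means and SDs are over 2 libraries, which limits their precision, and no tests were made on the members. Promoter sequences are from RefSeq (GRCh38.p14), all 5 members matching by symbol, and other sequence from hg38.

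The text names the 5 members, their neighbours and gained regions, the other class I myosins, 3 lists (11 other non-muscle myosins, calmodulin genes, 13 leukocyte actin regulators) with values for some of the 3 members that changed most in each, and the 5 genes most alike to MYO1F and to MYO1G. Some genes of these lists are not reported here. The members and lists were chosen with earlier results of these data known. Alternatives were matched peak numbers, a score of at least 100, the canonical TSS, a 5-kb window, the gene body, a 50% overlap, leaving out each library and same-numbered libraries as pairs. The coverage script was tested on simulated data. Python 3.11.15, numpy 2.4.6 and matplotlib 3.10.9 were used.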

Additional observations from a re-analysis of the deposited data

How the results depend on the processing

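The rise of H3K27ac at MYO1G, 7259.5 bp, stayed above 0 in all 11 alternatives, with 5174.5 bp at a matched number of peaks, 4990.5 bp in the 5-kb window, 3031 bp over the body and 5034.5 bp with only the bp nearer its own TSS (an alternative chosen after seeing the data), and 5997.5 to 8521.5 bp without 1 library. That of MYO1F, 2388 bp, was 1261 bp at a matched number, 3225 bp with a score of at least 100, 5065.5 bp over the body, 1985 to 2791 bp without 1 library and 876.5 bp in the 5-kb window, where the treatments overlapped. H3K4me2 at MYO1F, 4646 bp, was 3293.5 bp in the 5-kb window, 3524.5 bp over the body and 4073.5 to 5218.5 bp without 1 library. H3K4me2 at MYO1G, 2178.5 bp, was 817 bp over the body and 1661.5 to 2695.5 bp without 1 library. H3K4me3 at MYO1G, 1780.5 bp, was 1320.5 bp in the 5-kb window, 641.5 bp over the body, 1088 bp with only the nearer bp and 1652.5 to 1908.5 bp without 1 library. H3K4me3 at MYO1F ranged from -37.5 to 192.5 bp without 1 library. H3K4me3 at MYO1C, 845 bp, was 426 bp in the 5-kb window. H3K4me2 at MYO1E, -407 to -120 bp without 1 library, reversed from -263.5 to 2072.5 bp over the body, whose gained regions lie outside the window. Except where the construction shows it, the cause was not tested.

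Members that separated numbered 3 for H3K27ac, 2 at a matched number of peaks (16.8% of all genes above) or with a score of at least 100 (24.1%), where MYO1C was no longer above, and 1 in the 5-kb window, where 24.4% of all genes were above. For H3K4me2 they numbered 3, and 2 with only the nearer bp, which drops MYO1E, and 3 to 5 without 1 library (5 without Corin library 1, where 33.6% of all genes were above and 13.7% below, or without DMSO library 2, where 46.5% were above and 5.56% below). For H3K4me3 they numbered 2, and 2 to 3 without 1 library (3 without Corin library 2, where 27.0% of all genes were above, or without DMSO library 2, where 27.6% were). Gained regions at the members fell from 5 to 1 for H3K27ac, 3 to 1 for H3K4me2 and 1 to 0 for H3K4me3 at a matched number, when the gained share of all regions fell from 11.5% to 4.49%, 9.64% to 3.91% and 1.49% to 0.804%. Where peaks must cover at least 50% of a region, 5 H3K27ac regions were again gained (15.1% of all regions), but only 3 of them were the same: those 12226 to 13946 bp into MYO1F and 3213 to 4847 bp into MYO1G gave way to those 8546 to 9864 bp into MYO1F and over the TSS of MYO1G. For H3K4me2 the region 71880 to 72733 bp into MYO1E was added (13.7% of all regions gained). Genes separated fell from 5821 to 3706 for H3K27ac at a matched number. Without 1 library, which leaves 1 library in a group, they rose from 6103 to between 9479 and 10425 for H3K4me2 and from 3805 to between 7090 and 7563 for H3K4me3.

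With the replicate block, which asks that both same-numbered pairs change in the same direction, 5 members separated for H3K4me2, with MYO1C and MYO1D now also above and MYO1E below, where 35.1% of all genes were above and 5.15% below. For H3K4me3, 5899 genes separated. The block left each member's difference as it was (7259.5 bp for H3K27ac at MYO1G). The deviations of same-numbered libraries from their group means correlated across genes at 0.213, 0.230 and 0.203, but nothing in the labels ties same-numbered libraries together and there are only 2 pairs, so the pairing was not used. The lists hold no read depth, so a bp without a peak may have had too few reads for a call.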
